A study of Mus musculus with 18 samples.

Results

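The Gimap family (GTPases of the immunity-associated proteins) was followed through fetal, neonatal and adult mouse bone marrow (BM) by summing the transcripts of its 7 listed members, Gimap1, Gimap3, Gimap4, Gimap5, Gimap6, Gimap8 and Gimap9. The members were chosen by name, not by level, and all 7 were found among the 20275 genes of the count matrix. GIMAP proteins are small GTP-binding proteins, several of which sit on intracellular membranes such as those of the endoplasmic reticulum, lysosomes and mitochondria. They are best known for the survival and quiescence of lymphocytes: loss of Gimap5 or Gimap1 shortens the life of peripheral T and B cells, and loss of Gimap5 also disturbs hematopoietic stem cells. The genes lie side by side in 1 cluster, so that they can be compared as neighbours as well as relatives.

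Single-cell RNA sequencing with antibody tags (CITE-seq) was available for 9 libraries of C57B6/J mice, whose labels name no transgene or treatment. Hematopoietic progenitors (HPs), sorted as Lineage-Kit+ cells, came from embryonic day (E) 16.5 in 2 libraries and from E18.5, postnatal day 0 (P0) and adult BM in 1 library each, and stromal cells, sorted as CD45-Ter119-, from the same 4 stages in 1 library each. Per the study's methods each library was a pool of several mice, taken over litters up to P0, and the single-cell experiments were not repeated. The labels give no age for the adults and do not say whether the E16.5 HP libraries came from separate pools, so the p-values of the stage comparisons below rest on the spread between those libraries alone, which may be technical. The HP sort keeps Kit+ cells without lineage antigens, so the T and B cells it holds are those that passed this gate and do not stand for all lymphocytes of the marrow. Libraries held 560 to 14084 cells and 13974733 to 194892476 unique molecular identifiers (UMIs, 1 per captured molecule). Cell types are the codes the authors assigned to clusters, which were built from the same transcripts, so a code against the rest is a description here and carries no test. Levels are given as CPM, the UMIs of a gene scaled by all UMIs of the cells in the group, with exact Poisson 95% intervals, and ratios carry exact 95% intervals. These intervals cover counting error only, and a level cannot tell more RNA per cell from more cells of a kind within a code. Since the 3′ chemistry gives 1 tag per molecule whatever the transcript length, levels of different genes are compared as molecules detected.

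Some HP libraries shared cell barcodes far more often than the others. Of 54831 barcodes, 1102 occurred in more than 1 library. In the smallest library, E16.5 HP 1, 330 of its 560 cells (58.9%) had a barcode that the adult HP library also listed, with a median of 30840 UMIs against 668 in the adult library. Between E18.5 HP and adult HP 375 barcodes were shared (medians 52117 and 497), and between E16.5 HP 1 and P0 HP 153 (medians 39192 and 566). Some shallow codes were made up mostly of cells with a shared barcode: 96.5% of adult Mast4i cells, 81.7% of adult Mast4ii cells and 76.3% of P0 Mast4 cells. Adult Mast4i and Mast4ii hold 201 and 120 cells, fewer together than the 375 barcodes shared with E18.5 HP. Other adult codes thus held shared barcodes too. Of the codes that matter most below, only those of E16.5 HP 1 were strongly touched, with 6 of its 13 TCell5 cells and 20 of its 33 HSPC1 cells. The comparisons of T, HSPC, Bcell1 and endothelial codes and of the antibody gates were repeated without these cells where enough remained, while levels of single codes use all cells unless stated. For HSPC1 of E16.5 HP 1 the summed family level was 237 CPM (205 to 273) with them and 370 CPM (287 to 470) without.

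Of the lymphoid, HSPC and endothelial codes checked against their markers, several departed from their names or held markers of other cells. In E16.5 HP 2, codes TCell1 to TCell4 and TCell6 carried transcripts of immature T cells: Ptcra, which encodes the pre-T cell receptor chain, stood at 213 to 599 CPM and Rag1, a recombinase subunit, at 93.8 to 335 CPM in TCell1, TCell4 and TCell6, and at 51.1 and 80.2 CPM and 42.1 and 54.4 CPM in TCell2 and TCell3, against 4.47 and 2.23 CPM in TCell5 of the same library. The 5 cells coded TCell2 or TCell3 in E16.5 HP 1 held no UMI of any of 10 T cell markers. In HSPC1, the E16.5 code for hematopoietic stem and progenitor cells, the 10 T markers summed to 1710 CPM in E16.5 HP 2 and 201 CPM in E16.5 HP 1, against 234 CPM in E18.5 HSPC2 and 30.5 CPM in adult HSPC5, and Hlf, a stem cell transcription factor, stood at 21.2 and 19.2 CPM against 157 and 115 CPM. The adult code T/NK holds T and natural killer cells together, with 1300 CPM of T markers and 3200 CPM of 7 NK markers. Its 6 granulocyte markers summed to 4560 CPM. In TCell5 the NK markers summed to 792 and 1270 CPM in the E16.5 libraries 1 and 2, with 2 and 0 of 7 at 0, and to 3790 CPM at E18.5 and 2860 CPM at P0, beside 3200 and 3120 CPM of T markers at the last 2 stages. The other TCell codes of E16.5 HP 2 had 1720 to 2090 CPM of NK markers, most of it Gzma, at 1460 to 1980 CPM. HSPC1 also held other lineages at E16.5: 6 mast cell markers summed to 3610 and 4420 CPM in libraries 1 and 2 against 177 to 420 CPM in the later HSPC codes, and 6 monocyte and dendritic markers to 6460 and 3380 CPM against 376 to 678 CPM. P0 HSPC4, 1 of 3 HSPC codes at P0, had 8610 CPM of 6 granulocyte markers against 346 CPM of 7 HSPC markers. Endothelial codes held 2520 to 9280 CPM of 5 chondrocyte markers, the most in P0 ECs, where the 9 endothelial markers summed to 5060 CPM, and in E16.5 ECs both lists were close, at 3790 and 3580 CPM.

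The 7 members and the further row Gimap7 lie within 124 kb of chromosome 6 (GENCODE annotation of mm10, the build named in the submitters' processing notes), from the start of Gimap8 at 48647234 to the end of Gimap3 at 48770851. Along the plus direction their order was Gimap8, Gimap9, Gimap4, Gimap6, Gimap7, Gimap1, Gimap5 and Gimap3, with Gimap6 and Gimap3 on the minus strand and the others on the plus strand. Gimap9 is the most compact, with 2 exons in 2.99 kb, and Gimap8, whose protein carries several GTPase domains, is the longest with 5 exons in 13.6 kb. A readthrough gene, Gm28053, overlaps 5.97% of the exon bases of Gimap7, 11.6% of those of Gimap1 and 7.83% of those of Gimap5, but none of the last 500 bases of any member, where 3′ tags fall. It held 29 UMIs in all (it was singled out after its values were seen). Of 75-base windows in those last 500 bases, 2.58% of the windows of Gimap1 also matched another gene, Gm10310, and none did for the other members, so shared reads could touch only a small part of Gimap1.

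Promoter sequence is shown for 3 members with different patterns below: Gimap6, the highest member in endothelial codes from E18.5 on, Gimap4, which was high in endothelium and in some T codes, and Gimap3, which was found in lymphoid codes and hardly at all in stroma. The 250 bases before the RefSeq start of each gene (GRCm38.p6) were searched on both strands for GGAAG (the core bound by ETS factors), TGTGGT (bound by RUNX factors) and AGATAA (bound by GATA factors), and matches are in capitals, written as CTTCC or ACCACA where they lie on the other strand.
Gimap6 (chr6:48708245-48708494, minus strand): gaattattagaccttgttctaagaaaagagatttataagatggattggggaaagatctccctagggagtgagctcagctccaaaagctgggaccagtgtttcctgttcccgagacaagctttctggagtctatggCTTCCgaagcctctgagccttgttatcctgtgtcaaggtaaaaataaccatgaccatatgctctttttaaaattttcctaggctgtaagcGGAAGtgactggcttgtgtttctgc
Gimap4 (chr6:48684328-48684577, plus strand): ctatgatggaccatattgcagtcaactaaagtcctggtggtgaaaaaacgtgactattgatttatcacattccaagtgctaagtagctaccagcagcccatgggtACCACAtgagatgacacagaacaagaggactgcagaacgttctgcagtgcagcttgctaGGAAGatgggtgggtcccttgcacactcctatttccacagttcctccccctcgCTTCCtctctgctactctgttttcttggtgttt
Gimap3 (chr6:48770852-48771101, minus strand): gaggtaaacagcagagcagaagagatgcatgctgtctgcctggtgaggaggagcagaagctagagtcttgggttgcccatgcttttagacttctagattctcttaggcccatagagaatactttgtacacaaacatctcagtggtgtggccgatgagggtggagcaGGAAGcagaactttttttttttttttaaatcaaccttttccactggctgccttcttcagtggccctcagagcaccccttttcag
GGAAG occurred 2 times in the Gimap6 window, 2 times in that of Gimap4 and 1 time in that of Gimap3. It is a common word, held by 64.1% of the 32851 mouse promoter windows of the same length. TGTGGT was found before Gimap4, Gimap1 and Gimap7 and in 14.0% of all windows, and AGATAA before no Gimap gene and in 9.99% of all windows. These matches describe letters only and are not evidence of binding.

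In all, the 7 members gave 74235 UMIs, 65625 in HPs and 8610 in stroma. Gimap1, required for the survival of mature lymphocytes, gave 33.5% of them (24896 UMIs), Gimap6, a partner of the autophagy machinery, 27.8% (20601), and Gimap9 22.1% (16390). Gimap5 gave 6942 UMIs, Gimap4 3373, Gimap8 1550 and Gimap3 only 483, of which 482 were in HPs and 1 in stroma. Thus 3 genes of the cluster carried most of the family's molecules, while Gimap3, which has been tied to the segregation of mitochondrial DNA in blood cells, was the rarest and the most restricted. Per library the summed level was 84.5 to 224 CPM in HPs and 6.04 to 49.9 CPM in stroma, with the adult library the lowest of the HPs and the highest of the stroma. The mix of codes differed between libraries too. Endothelial codes held 71 of 8226 stromal cells at E16.5 and 594 of 6267 in adults, and the other stromal cells stood at 2.35 and 7.88 CPM.

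**Figure D1:**
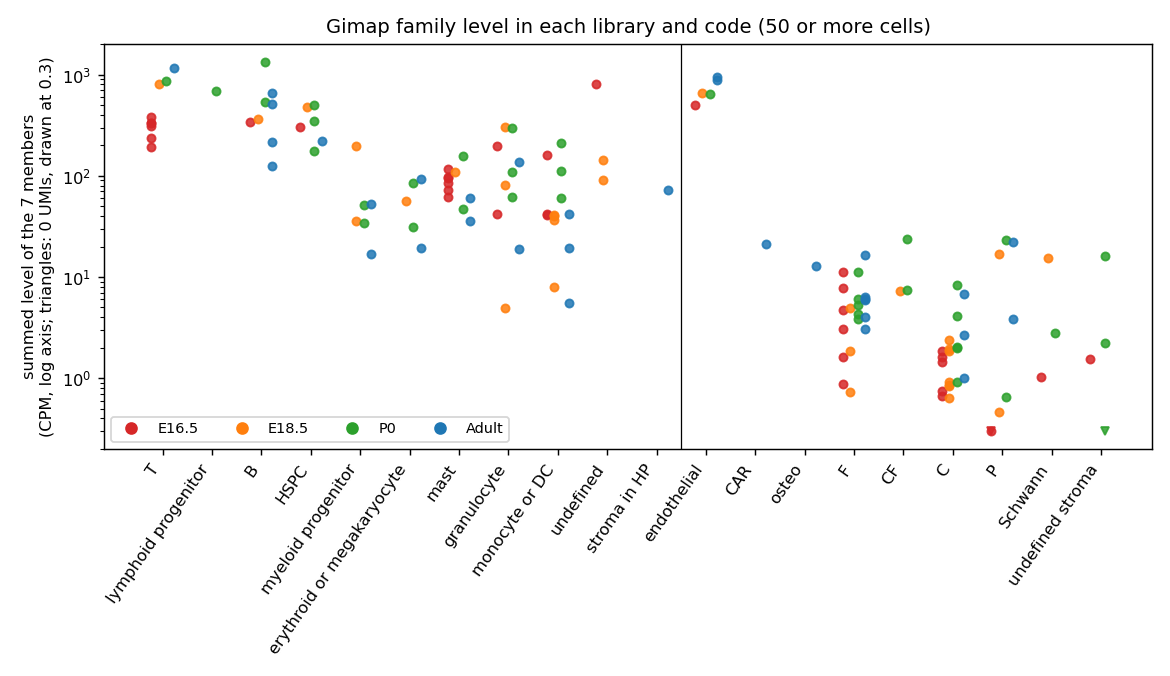
Summed level of the 7 Gimap members (CPM, log axis) in each library-by-code group of 50 or more cells, grouped by class of code and coloured by stage, with HP codes left of the line and stromal codes right of it. Among stromal classes the endothelial codes, at 498 to 941 CPM, sit far above all others, and among HP classes the lymphoid codes reach the highest levels.

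Across the 138 library-by-code groups with at least 50 cells, the levels fell into tiers. The highest was P0 BCell2, a code of 61 shallow cells (median 3499 UMIs), at 1320 CPM (1180 to 1480). Adult T/NK followed at 1150 CPM (1060 to 1250), and these intervals overlapped. The adult arterial and sinusoidal endothelial codes, AECs at 941 CPM (902 to 980) and SECs at 880 CPM (838 to 924), stood next among groups of this size, beside P0 TCell5 at 872 CPM (806 to 941), and SECs and TCell5 could not be ordered by their intervals. A code of 3 cells in E16.5 HP 1, UD1, also reached 1050 CPM (717 to 1480). The same code in E16.5 HP 2, with 76 cells, stood at 805 CPM (743 to 870). That was above TCell5, the highest T code of that library, at 379 CPM (356 to 403). Lymphoid progenitors (LymP) at P0 had 695 CPM, HSPC codes 177 to 496 CPM, and mast cell codes 35.4 to 158 CPM. The lowest HP groups were E18.5 Neu2 at 4.91 CPM and adult Mono4, a monocyte code, at 5.58 CPM. Outside endothelium the stromal classes had medians of 1.72 CPM in 20 groups coded C and 4.79 CPM in 20 groups coded F, letters that the labels do not spell out.

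**Figure D2:**
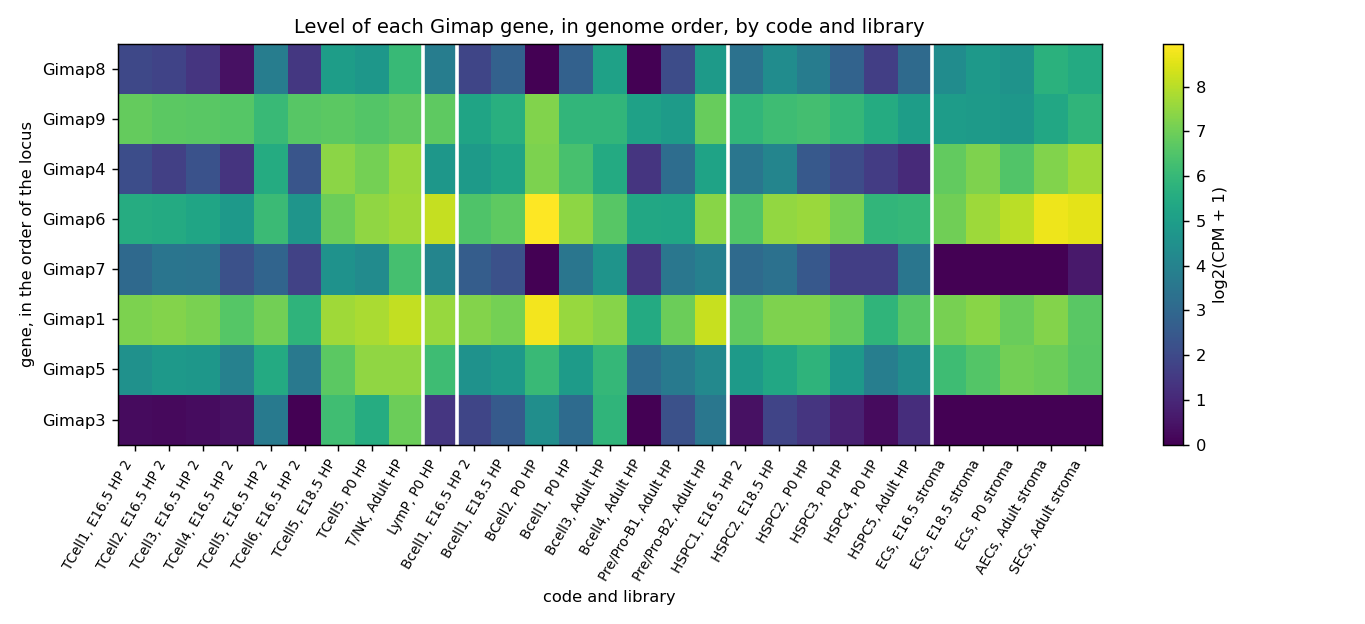
Level of each member, and of the neighbouring Gimap7, as log2(CPM + 1) (colour), with genes in the order of the locus in rows and library-by-code groups of 50 or more cells in columns, split by white lines into T, lymphoid progenitor, B, HSPC and endothelial codes. Gimap1, Gimap6 and Gimap9 are present in every column, Gimap3 and Gimap7 are dark in endothelium, and Gimap4, Gimap8 and Gimap3 brighten in TCell5 and T/NK.

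Summed over T cell codes, the family level was higher than in all other HP cells of the same stage combined, though single codes such as P0 BCell2 stood above the T codes, and the excess was small at E16.5. The summed level in T codes was 305 CPM at E16.5 against 130 CPM in the other HP cells, a ratio of 2.34 (2.28 to 2.41). At E18.5 it was 805 against 171 CPM (4.70-fold, 4.39 to 5.03), at P0 872 against 199 CPM (4.38-fold, 4.05 to 4.74), and in adults 1150 against 75.4 CPM (15.2-fold, 13.9 to 16.6). The E16.5 value came almost wholly from library 2: the ratio was 5.44 in library 1 with 18 T-coded cells and 2.15 in library 2 with 2141. In library 2, T codes stood at 303 CPM, beside 305 CPM in HSPC, 339 CPM in B and 678 CPM in undefined codes. Its mast, granulocyte, and monocyte and dendritic codes stood at 96.5 to 138 CPM. In library 1, T codes were the highest class, at 498 CPM. At the later stages the class next below T was HSPC codes at E18.5 (474 CPM), LymP, the lymphoid progenitors, at P0 (695 CPM) and B codes in adults (289 CPM). The other HP cells are thus a mix whose make-up differs between stages. Leaving out cells with shared barcodes moved the E18.5 ratio to 4.13 and the other ratios by less. The members did not share this excess evenly. In adults Gimap4 stood at 192 against 1.75 CPM (109-fold, 82.0 to 146) and Gimap3 at 122 against 1.48 CPM (82.3-fold, 58.3 to 115), whereas Gimap9 stood at 108 against 16.5 CPM (6.55-fold, 4.89 to 8.62). The same genes had the highest ratios at E18.5 and P0, with Gimap3 90.8-fold and 58.0-fold and Gimap4 32.8-fold and 21.4-fold.

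**Figure D3:**
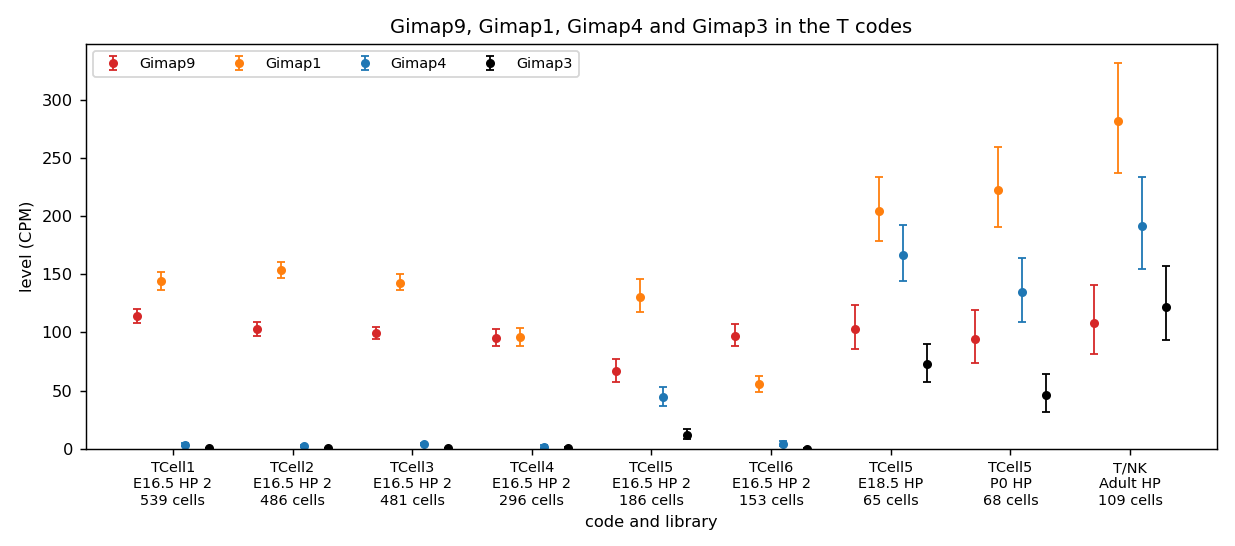
Levels of Gimap9, Gimap1, Gimap4 and Gimap3 (CPM, linear axis) in the T codes with 50 or more cells, with points for the level and bars for exact Poisson 95% intervals, and cell numbers under each code. Gimap9 lies between 66.7 and 114 CPM in all 9 groups, while Gimap4 and Gimap3 lie near 0 in the E16.5 codes TCell1 to TCell4 and TCell6 and above it in TCell5 and T/NK.

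Within E16.5 HP 2 alone, where all T codes come from 1 library, the codes split the family in a clear way. Gimap3 stood at 11.9 CPM in the 186 TCell5 cells and at 0.194 CPM in the other TCell codes (61.5-fold, 28.7 to 146). Gimap4 stood at 44.3 against 3.02 CPM (14.7-fold, 11.4 to 18.9) and Gimap8 at 13.0 against 1.94 CPM (6.72-fold, 4.41 to 10.0). Gimap5 and Gimap6 were 1.95-fold and 1.80-fold higher in TCell5, Gimap1 was equal at 131 CPM in both (1.00-fold, 0.898 to 1.12), and Gimap9 was lower, at 66.7 against 103 CPM (0.648-fold, 0.555 to 0.752). Hence 3 of 7 members were at least 4-fold higher in TCell5, against 5.38% of 12426 genes with enough UMIs, and no member was at least 4-fold lower. Gimap3 reached the minimum of 20 UMIs only through TCell5 (32 UMIs there, 9 in the other codes), so this count is a description. The TCell5 code was the 1 with few Ptcra and Rag1 transcripts, as given above, and the cells it groups were clustered on these same transcripts.

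Between stages, T codes were compared in the 5 HP libraries with edgeR's quasi-likelihood test, each later stage against the E16.5 pair, with lone libraries assumed to vary like that pair. Gimap3 stood at 37.4 and 0.835 CPM in the E16.5 libraries 1 and 2 and at 72.6, 45.7 and 122 CPM at E18.5, P0 and in adults. Gimap4 stood at 82.2 and 5.27 CPM, then at 167, 135 and 192 CPM, and Gimap5 at 42.4 and 23.5 CPM, then at 103, 174 and 176 CPM. For these 3 genes every later library was above both E16.5 libraries, but the E16.5 libraries differed widely from each other. Gimap8, at 34.9 and 2.55 CPM and then 30.9, 25.6 and 64.0 CPM, overlapped at E18.5 and P0. Gimap9 hardly moved, with 82.2 and 101 CPM and then 103, 94.2 and 108 CPM.

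By this test 2 of 7 members were higher at E18.5, where 1.74% of all genes changed: Gimap3 with a log2 fold change of 2.89 (SE 0.713, edgeR adjusted p = 0.00472) and Gimap4 with 2.29 (SE 0.672, edgeR adjusted p = 0.0415). At P0 1 of 7 was higher, Gimap5 with 2.47 (SE 0.660, edgeR adjusted p = 0.0196), beside 1.13% of all genes. In adults 4 of 7 were higher, beside 3.17% of all genes. These were Gimap3 with 3.80 (SE 0.715, edgeR adjusted p = 1.26e-05), Gimap5 with 2.70 (SE 0.666, edgeR adjusted p = 0.00316), Gimap4 with 2.65 (SE 0.679, edgeR adjusted p = 0.00522) and Gimap8 with 2.69 (SE 0.708, edgeR adjusted p = 0.00733). DESeq2 called none of the 7 at any stage. The log2 fold change of Gimap3 in adults ran from 1.87 without E16.5 replicate 2 to 6.86 without E16.5 replicate 1. The libraries also held different T codes, and TCell5 made up 13 of 18 T-coded cells in library 1 and 186 of 2141 in library 2. In TCell5 alone, the T code shared by E16.5, E18.5 and P0, edgeR called 0 of 7 members at E18.5 (0.773% of all genes) and 0 of 7 at P0 (0.75%), with 3 and 1 members at an unadjusted p under 0.05, and DESeq2 called none. No other test of the mix of T codes was made. All T-coded cells at E18.5 and P0 were TCell5 cells. The NK markers given above, higher at these stages and in adult T/NK than in any E16.5 TCell code, moved with these results, and their part was not tested. With shared barcodes left out, E16.5 HP 1 kept 9 T-coded cells, too few for the fit.

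Genes of lymphocyte survival and homing were read beside the family in the same fit. Of 14 such genes, Klf2, a quiescence factor of lymphocytes, and S1pr1, the receptor by which they leave tissues, were higher in T codes at all 3 later stages. In adults Klf2 had a log2 fold change of 2.33 (SE 0.678, edgeR adjusted p = 0.0231) and S1pr1 of 3.1 (SE 0.740, edgeR adjusted p = 0.00195). Their levels also differed between codes of 1 stage. Klf2 stood at 54.3 and 171 CPM in TCell5 of the E16.5 libraries 1 and 2, at 133 CPM at E18.5, 141 CPM at P0 and 104 CPM in adult T/NK, but at 5.53 to 7.87 CPM in the other TCell codes of E16.5 HP 2. Of 12 BCL2-family genes, 10 were tested and only Bcl2, which keeps lymphocytes alive, changed, being higher in adults (2.63, SE 0.642, edgeR adjusted p = 0.00277). In TCell5 alone none of the genes of either list was called, and DESeq2 kept only the Bcl2 call in T codes.

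B lineage codes spanned more than a 10-fold range. P0 BCell2 led at 1320 CPM, with Gimap6 at 495 CPM and Gimap9 at 153 CPM the highest of these 2 genes in any group. Adult Pre/Pro-B2 stood at 661 CPM (595 to 731), P0 Bcell1 at 539 CPM (520 to 559) and adult Bcell3 at 509 CPM (461 to 561), while adult Bcell4 had 126 CPM. Cells of Pre/Pro-B2 and adult Bcell3 were shallow, like those of BCell2, with medians of 2159 and 1903 UMIs. Adult Bcell3 held an unusual amount of Gimap3, 57.1 CPM (41.8 to 76.2) from 46 UMIs in 347 cells, with a summed T marker level of 141 CPM in which 6 of 10 markers were at 0. Its granulocyte markers summed to 5490 CPM, beside 5550 CPM of B markers.

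Bcell1, the B code shared by E16.5, E18.5 and P0, gave a comparison within 1 code. Gimap4 stood at 29.8 and 28.5 CPM in the E16.5 libraries, at 36.2 CPM at E18.5 and at 80.3 CPM at P0. The E16.5 libraries were close to each other here, and P0 stood apart. In edgeR 1 of 7 members was higher at P0, Gimap4 with a log2 fold change of 1.60 (SE 0.412, edgeR adjusted p = 0.0149), where 0.974% of all genes changed. The call was lost in DESeq2 (adjusted p = 1) and when cells with shared barcodes were left out (log2 fold change 1.46). At E18.5 edgeR called 0 of 7 members (0.736% of all genes), with 0 at an unadjusted p under 0.05 and none in DESeq2. Gimap6 and Gimap9 went from 87.9 and 89.0 CPM to 171 CPM and from 48.1 and 36.4 CPM to 57.8 CPM at P0, neither past the threshold.

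The P0 code LymP, which names lymphoid progenitors, had more of some members than P0 HSPC2 from the same library. Gimap4 stood at 25.6 against 4.71 CPM (5.44-fold, 3.92 to 7.66), Gimap6 at 289 against 194 CPM (1.49-fold, 1.40 to 1.59) and Gimap9 at 106 against 76.5 CPM (1.39-fold, 1.25 to 1.54). Gimap8 (1.02-fold, 0.759 to 1.36) and Gimap3 (1.01-fold, 0.411 to 2.33) did not differ beyond counting error. Thus Gimap4 was the member with the largest ratio between these P0 codes. In E18.5 HSPC2 Gimap4 stood at 15.7 CPM, nearer to LymP, so the ratio depends on the HSPC code it is set against.

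In HSPC codes the family was led by Gimap6 and Gimap1. Gimap6 stood at 93.5 and 89.9 CPM in the E16.5 libraries and at 179, 144 and 61.3 CPM at E18.5, P0 and in adults. Gimap1 stood at 59.9 and 108 CPM, then at 147, 116 and 97.3 CPM, and Gimap8 at 8.39 and 9.36 CPM, then at 19.5, 7.72 and 7.52 CPM. For Gimap6 the E18.5 and P0 libraries were above, and the adult library below, both E16.5 libraries, and for Gimap8 only the E18.5 library was above them. Gimap4 stood at 10.8 and 10.3 CPM, then at 15.7, 3.51 and 1.10 CPM, the last from 6 UMIs. So within HSPC codes Gimap4 was at its lowest in adults, while in endothelium and T codes the adult libraries were among the highest.

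**Figure D4:**
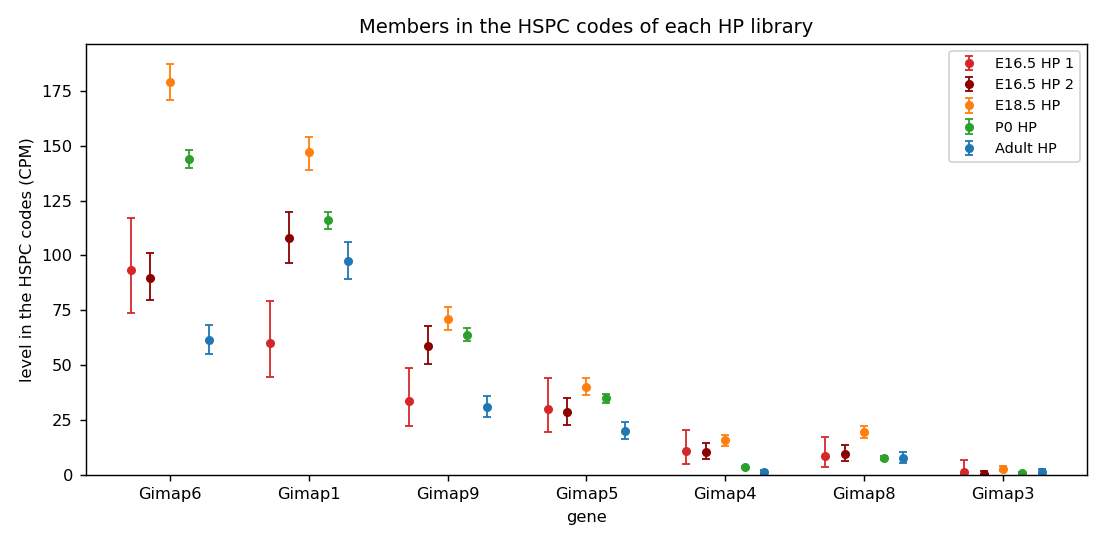
Levels of the 7 members (CPM, linear axis) in the HSPC codes of each HP library, with points for the level and bars for exact Poisson 95% intervals. Gimap6, Gimap1 and Gimap9 peak in the E18.5 library, and Gimap4 is lowest, at 1.10 CPM, in the adult library.

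In the edgeR fit of HSPC codes, 0 of 7 members were called at E18.5 (3.94% of all genes) and 0 of 7 at P0 (5.2%), with 2 and 1 members at an unadjusted p under 0.05 and none in DESeq2. In adults 1 of 7 was called, beside 7.93% of all genes: Gimap4 fell, with a log2 fold change of -3.00 (SE 0.804, edgeR adjusted p = 0.00461). That call was lost in DESeq2 (log2 fold change -2.98, adjusted p = 0.133) and when cells with shared barcodes were left out (-2.78). The T, mast, monocyte and dendritic cell markers of E16.5 HSPC1 given above moved with this result, and their part in it was not tested. Comparisons of P0 HSPC2 with codes that do not involve E16.5 gave Gimap4 at 4.71 CPM at P0 against 15.7 CPM in E18.5 HSPC2 (0.301-fold, 0.214 to 0.417) and adult HSPC5 at 1.10 against 4.71 CPM in P0 HSPC2 (0.234-fold, 0.0818 to 0.546). The summed family level was 219 CPM in adult HSPC5 against 496 CPM in P0 HSPC2 (0.443-fold, 0.415 to 0.472). HSPC2 was the highest of the P0 HSPC codes: P0 HSPC3 stood at 351 CPM, and P0 HSPC4, at 177 CPM (166 to 189), was below adult HSPC5. Each of these is 1 library against 1, without a replicate check. Granulocyte markers moved with the adult values, at 3320 CPM in HSPC5 against 1110 CPM in P0 HSPC2 and 1220 and 586 CPM in E16.5 HSPC1, and their part was not tested. Gimap7 went the other way, at 10.3 CPM in adult HSPC5 against 4.52 CPM in P0 HSPC2 (2.28-fold, 1.52 to 3.43).

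Of the 12 BCL2-family genes, 3 were lower in HSPC codes at every later stage: Bcl2a1b and Bcl2a1d, which encode A1 survival proteins, and Pmaip1, which encodes the pro-apoptotic NOXA. The T, mast, monocyte and dendritic cell markers of E16.5 HSPC1 moved with the calls of both lists, which was not tested further, and the A1 genes are near-identical copies whose reads may be split. In adults their log2 fold changes were -6.97 (SE 0.659, edgeR adjusted p = 4.35e-23), -6.12 (SE 0.755, edgeR adjusted p = 1.62e-13) and -3.23 (SE 0.741, edgeR adjusted p = 0.000452), and Bcl2 itself was higher (1.89, SE 0.385, edgeR adjusted p = 4.8e-05). Of the 14 survival and homing genes, Tcf7, a T lineage transcription factor, was lower at all 3 stages, in adults by a log2 fold change of -5.07 (SE 0.674, edgeR adjusted p = 1.01e-11). Il7r, the interleukin-7 receptor, fell at P0 (-3.54, SE 0.464, edgeR adjusted p = 5.3e-12). DESeq2 lost the Pmaip1 call at P0 (adjusted p = 0.0743). Without shared barcodes, where 13 HSPC1 cells of library 1 remained, both A1 genes were still called at all 3 stages (edgeR adjusted p = 7.3e-06 to 0.000145), whereas the calls of Pmaip1 at P0 (edgeR adjusted p = 0.101), Tcf7 at P0 (edgeR adjusted p = 0.0772), Il7r (edgeR adjusted p = 0.0505) and Bcl2 (edgeR adjusted p = 0.164) were lost, at log2 fold changes of -3.28, -3.07, -3.30 and 2.28. Of the 14 survival and homing genes, Lef1 was also lower at E18.5 (log2 fold change -5.92, SE 1.5) and P0 (-4.05, SE 1.14). Ccr7 was lower at P0 (-3.54, SE 1.03), whereas S1pr1 was higher at P0 (1.59, SE 0.521) and Stat5b in adults (1.37, SE 0.425). The edgeR calls of Lef1, Ccr7, S1pr1 and Stat5b were all lost in DESeq2 and without shared barcodes. The median log2 fold change of the 7 members was 0.77, 0.48 and -0.29 at E18.5, P0 and in adults, beside medians over all genes of 0.01, 0.01 and -0.04.

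Mast cell, granulocyte and monocyte codes held a lower and differently composed share. In the 11 mast groups Gimap1 had a median of 34.0 CPM and Gimap9 of 30.7 CPM, whereas Gimap3 was at 0 UMIs in 10 of 11 and Gimap4 in 6 of 11. Mast1 of the E16.5 libraries had 94.2 CPM (82.4 to 107) in library 1, or 73.0 CPM (55.5 to 94.1) without shared barcodes, and 117 CPM (111 to 123) in library 2. The 10 T markers summed to 15.6 CPM in the former, with 8 of 10 at 0, and to 662 CPM in the latter, with none at 0. P0 Mast3 reached 158 CPM (146 to 171). The shallow codes Mast4, Mast4i and Mast4ii, most of whose barcodes were shared, rested on 9, 9 and 4 UMIs. Among granulocyte codes E18.5 Bas1, at 303 CPM (278 to 329), and P0 Eos/Bas3, at 299 CPM (259 to 343), stood highest and could not be ordered by their intervals. Bas1 had Gimap1 at 144 CPM and Gimap9 at 59.0 CPM. Among monocyte and dendritic codes P0 Mono2 stood highest at 210 CPM (189 to 233).

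Shares of cells were compared after thinning each cell to 1000 UMIs, because depth differed between codes. In this form at least 1 UMI of the 7 members was found in 25.8% of T-coded cells in E16.5 HP 2, 56.9% at E18.5, 55.9% at P0 and 67.6% of 108 adult T/NK cells. HSPC codes gave 23.6% in E16.5 HP 2, 36.3% at E18.5, 34.2% at P0 and 22.7% in adults. Monocyte and dendritic codes of the same libraries, used as the low reference, gave 3.05%, 2.45%, 4.65% and 1.63%. As this reference was low in the family to begin with, T and HSPC codes had to stand above it. At a fixed depth such shares largely follow the summed level, so they are a description and no separate support. Without thinning the shares were 96.6% and 95.4% in the E16.5 HP 2 and adult T codes, at medians of 21983 and 3647 UMIs per cell. In stroma the thinned share was 38.0% in E16.5 ECs and 63.1% in adult endothelial codes, against 0.195% and 0.368% in C codes.

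In stroma the family marked endothelium. Endothelial codes (ECs, and in adults AECs and SECs) stood at 498 CPM at E16.5 against 2.35 CPM in the other stromal cells (212-fold, 181 to 247). At E18.5 the levels were 662 against 2.06 CPM (321-fold, 276 to 375), at P0 648 against 4.59 CPM (141-fold, 130 to 154) and in adults 914 against 7.88 CPM (116-fold, 107 to 126). The lower bound of the interval was thus 107-fold or more at each stage, and leaving out cells with shared barcodes kept each ratio within its interval. Other settings moved the ratios more, as given further below. With every cell weighted alike they fell below that bound at P0 and in adults, and without Gimap1 in adults. Members with at least 20 UMIs in the comparison were all at least 16-fold higher: 5 of 5 at E16.5 (beside 1.51% of all genes), 6 of 6 at E18.5 (2.64%), 6 of 6 at P0 (2.12%) and 6 of 6 in adults (2.85%). A gene whose UMIs lie almost all in endothelium had to differ to be counted, so these shares are a description. Gimap8 missed the minimum at E16.5, with 17 UMIs in ECs and 2 elsewhere. The member left out at every stage was Gimap3, with 0 UMIs in the endothelial cells of all 4 libraries, which in adults allows at most 0.704 CPM. Gimap7 gave 1 UMI in all endothelial cells.

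**Figure D5:**
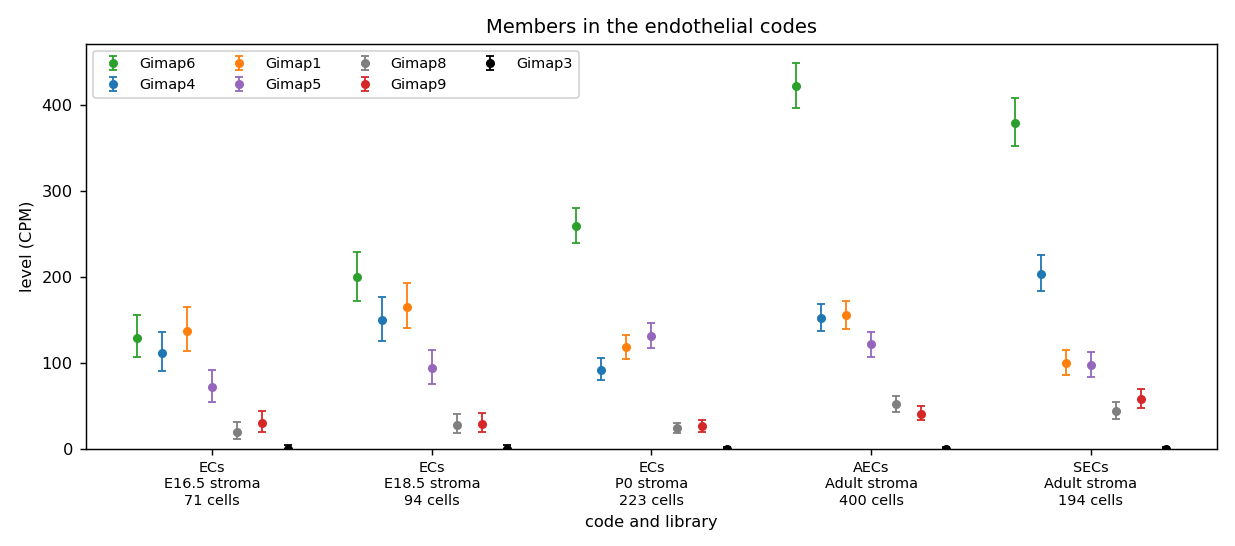
Levels of the 7 members (CPM, linear axis) in the endothelial codes of the stromal libraries, with points for the level, bars for exact Poisson 95% intervals and cell numbers under each code. Gimap6 goes from 129 CPM at E16.5 to 421 and 379 CPM in adult AECs and SECs, whereas Gimap3 has 0 UMIs throughout.

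In make-up, the adult endothelial codes differed from adult T/NK in some members only. Gimap6 gave 44.1% of the family's UMIs in endothelium and 17.9% in T/NK, but Gimap4 gave 19.1% and 16.7%, and Gimap8 5.26% and 5.57%. Gimap4 and Gimap1 had the highest ratios of endothelial cells to other stroma at E16.5, E18.5 and, with Gimap1 ahead, in adults, while at P0 Gimap1 (1330-fold) was followed by Gimap8 (898-fold, 363 to 2870) and Gimap4 (802-fold, 517 to 1310), whose intervals overlap. The interval of Gimap8 also overlapped those of both in adults and at E16.5 and E18.5, and the E16.5 ratios rest on 2 to 4 UMIs outside endothelium. At E18.5 Gimap4 stood at 149 CPM from 140 UMIs against 0.0538 CPM from 6 UMIs, and Gimap1 at 165 CPM against 0.0897 CPM from 10 UMIs. Outside endothelium Gimap6 was the highest member in every stromal library, at 1.24 to 5.70 CPM, and Gimap9 stood at 0.395 to 0.956 CPM. In adults Gimap5, at 0.673 CPM from 59 UMIs, and Gimap4, at 0.445 CPM from 39 UMIs, were near Gimap9 at 0.582 CPM from 51 UMIs. In F codes Gimap6 had a median of 2.88 CPM and reached 15.4 CPM in adult F9. Blood cell markers were read in the endothelial codes as well. Ptprc, which encodes CD45, was at 0 UMIs in all 5 endothelial codes, the 5 blood markers summed to 2.08 to 21.8 CPM there, and endothelial cells without any UMI of these 5 genes had 523, 689, 662 and 927 CPM of the family at the 4 stages. In the same codes the monocyte and dendritic markers, of which 2 to 4 of 6 were at 0, summed to 365 to 4340 CPM, and the B markers, of which 4 of 7 were at 0, to 139 to 479 CPM. All 9 endothelial markers were present in each of these codes, summing to 3580 to 7840 CPM.

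Gimap6 in endothelium was higher at each later stage than at E16.5. It stood at 129 CPM in E16.5 ECs, 199 CPM at E18.5, 259 CPM at P0, 421 CPM in adult AECs and 379 CPM in SECs. Adult AECs and SECs together gave 403 CPM, 3.13 times the E16.5 level (2.59 to 3.83). Gimap8 was 2.46-fold higher (1.5 to 4.31), Gimap9 1.59-fold (1.06 to 2.50), Gimap4 1.56-fold (1.26 to 1.95) and Gimap5 1.55-fold (1.19 to 2.06), whereas Gimap1 was level at 131 against 137 CPM (0.956-fold, 0.783 to 1.18). Although 5 of 6 members with enough UMIs were thus at least 1.5-fold higher in adults, so were 45.6% of all genes, with a median log2 ratio of 0.48 over all genes and 0.65 over the members. Gimap6 and Gimap8 lay furthest above that median among the members, but whether they are unusual among all genes was not tested. Gimap8 had 17 UMIs in E16.5 ECs and reached the minimum of 20 only through the adult codes, so the count of members is a description. Each comparison is 1 library against 1. Marker lists moved with stage in the same codes, and their part was not tested: from E16.5 ECs to adult AECs and SECs the 9 endothelial markers went from 3580 to 7840 and 6720 CPM, the 6 mesenchymal markers from 870 to 3310 and 2850 CPM, and the 6 monocyte and dendritic markers from 365 to 4340 and 2970 CPM.

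The adult endothelial codes split the members within 1 library. Gimap1 was lower in SECs, at 99.7 against 155 CPM in AECs (0.645-fold, 0.538 to 0.772). Gimap4 was higher in SECs, at 203 against 152 CPM (1.34-fold, 1.16 to 1.55), as was Gimap9, at 57.1 against 40.3 CPM (1.42-fold, 1.07 to 1.89). Gimap8 did not differ beyond counting error (0.847-fold, 0.632 to 1.13), and the sum was nearly equal, at 880 against 941 CPM (0.935-fold, 0.877 to 0.997).

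Antibody gates gave groups that the transcripts had not defined. Phenotypic LT-HSCs (phLT-HSCs) were taken as cells above a centred log ratio of 1 for Ly6AE (Sca-1) and CD150 and not above it for CD48 and CD135. This cutoff was set here and not taken from the study, so the gated cells need not be the study's own phLT-HSCs. The study placed most of its phLT-HSCs with HSPCs at every stage except E16.5. The summed level in them was 48.9 CPM against 104 CPM in other HPs of E16.5 library 1 (10 gated cells), 326 against 224 CPM in library 2 (28 cells), 479 against 179 CPM at E18.5, 569 against 199 CPM at P0 and 352 against 80.7 CPM in adults. These are ratios of 0.470, 1.46, 2.67, 2.86 and 4.37, higher in 4 of 5 libraries. The mean log2 ratio was 0.903 (SD 1.25, n = 5), p = 0.1875 in an exact two-sided sign-flip permutation test whose smallest possible p is 0.063. Cutoffs of 0.75 and 1.5 lowered the mean log2 ratio to 0.544 (higher in 3 of 5 libraries) and 0.585 (4 of 5), and leaving out cells with shared barcodes gave 0.873. The gate did not catch the same cells throughout: none of the E16.5 gated cells had an HSPC code, 22 of 28 in library 2 being T-coded, whereas 69.7% at E18.5, 65.8% at P0 and 21.6% in adults did. In adults the largest class of gated cells was B-coded, with 52 cells (38.8%). Within HSPC codes the gated cells had 1.14 (0.996 to 1.29), 2.13 (1.97 to 2.29) and 2.03 (1.62 to 2.52) times the level of the other HSPCs at E18.5, P0 and in adults. There Gimap5 was 4.66-fold higher in adults (2.60 to 7.88), while Gimap9 differed by less than counting error at all 3 stages (0.670, 1.06 and 0.929).

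In stroma, cells positive for CD31, the endothelial adhesion molecule that Pecam1 encodes, had 41.6 against 2.14 CPM at E16.5, 86.4 against 1.76 CPM at E18.5, 71.1 against 4.44 CPM at P0 and 270 against 6.59 CPM in adults. The mean log2 ratio was 4.81 (SD 0.794, n = 4), higher in 4 of 4 libraries, with p = 0.13 in the exact two-sided sign-flip permutation test, the smallest p that 4 libraries allow. The size depended on the cutoff: the mean ratio was 28.1-fold at a centred log ratio above 1, 13.1-fold above 0.75 and 67.4-fold above 1.5, each higher in 4 of 4 libraries. Endothelial codes made up only 9.54% to 47.2% of the CD31-positive cells, though 92.8% to 100% of endothelial cells were positive. With endothelial codes removed the ratios fell to 2.06, 4.06, 1.49 and 3.04, all with intervals above 1. Cells positive for Ly6AE also had more of the family than the rest in adult HPs (215 against 52.1 CPM), in P0 HPs (495 against 131 CPM), at E18.5 (346 against 138 CPM) and, less clearly, in E16.5 HP 2 (278 against 215 CPM), but not in E16.5 HP 1 (101 against 104 CPM, 0.970-fold, 0.851 to 1.10). In E16.5 HP 2, cells positive for CD90.2, a T cell antigen, had 286 against 168 CPM and those positive for CD16and32, Fc receptors of myeloid cells, 115 against 300 CPM.

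Over the 138 groups of at least 50 cells, members varied together to different degrees. On log2(CPM + 10) the Pearson r was 0.94 between Gimap1 and Gimap9, 0.91 between Gimap5 and Gimap6 and 0.45 between Gimap3 and Gimap9, a description of groups that share libraries and differ in depth. Among 14577 genes with at least 500 UMIs, those most like the family sum were Sigirr (r = 0.90), a dampener of interleukin-1 family signals, Mfng (0.88), a glycosyltransferase that modifies Notch, Apobec3 (0.85), an antiviral deaminase, and Il2rg (0.84), the common cytokine receptor chain, followed by Casp8, Znrf1, Klhl6, Icam2, Dusp2 and Tes (0.83 to 0.80). The members shared some of their nearest genes. Sigirr was among the 3 nearest of Gimap1 (0.89), Gimap9 (0.87), Gimap5 (0.82) and Gimap6 (0.82), and 4833403J16Rik among those of Gimap5 (0.90), Gimap8 (0.85), Gimap6 (0.81) and Gimap4 (0.80). The nearest gene of Gimap9 was Ptprcap (0.88), which binds CD45, that of Gimap4 Ppp1r16b (0.81), and Gimap3 was closest to Il2rb (0.81), the interleukin-2 receptor beta chain, to its own relative Gimap7 (0.81) and to Cd2 (0.79).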

How the data were processed

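The authors deposited UMI counts per gene and cell for 9 mRNA libraries, aligned to mm10 with Cell Ranger 3.1.0 per the labels, antibody-tag counts for the same cells, and a table of cells with their codes. The deposited counts were used as they stand. Another 12 columns of per-cell values were not used. No doublet caller was run here.

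UMIs were summed per library and code. Intervals were exact (Poisson for levels, conditional binomial for ratios, binomial for shares). HSPC, T, TCell5 and Bcell1 sums were fitted with edgeR 4.0.16 (TMM, filterByExpr, quasi-likelihood, Benjamini-Hochberg over all genes, stage as the only term, at least 10 cells a library, 1 residual degree of freedom), with DESeq2 1.42.0 as an alternative, in R 4.3.3. Scripts were tested on simulated counts, adults against E16.5. There edgeR recovered 87% of 200 genes changed 4-fold in HSPC codes and 53% in T codes. The simulated spread was a fixed one and not that of the E16.5 pair. Antibody counts were turned into centred log ratios within each library. A count of 0 was taken to allow 3 UMIs. GENCODE and RefSeq gave positions and promoters, and all 7 members matched.

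The members, lists and tests were chosen with earlier results of these data known. Named genes are the 7 members, Gimap7, listed genes past the threshold, and the genes most like the sum (10) or a member (3) in pattern. Results for 1 listed gene are not reported here. Leaving out cells with shared barcodes (listed genes and Mast1 included) and fitting TCell5 and Bcell1 alone were chosen after seeing the data.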

Additional observations from a re-analysis of the deposited data

Results flagged for a closer look

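Gimap4 in antibody-gated phLT-HSCs had a ratio to the other HPs below 1 at E16.5 and above 1 at the later stages. In the E16.5 libraries together it stood at 0.584 times the level of the other HPs (0 UMIs in 10 gated cells of library 1, and 0.785-fold, 0.0947 to 2.85, from 2 UMIs in library 2). At later stages the ratios were 1.61-fold (0.693 to 3.21) at E18.5, 1.27-fold (0.676 to 2.19) at P0 and 7.38-fold (4.34 to 11.9) in adults. The adult gated cells were 38.8% B-coded and 21.6% HSPC-coded, and the HSPC-coded ones held 0 UMIs of Gimap4. The difference between these groups was not tested, every interval except that of adults included 1, and the 0 and 2 UMIs at E16.5 are too few to read a direction from.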

How the results depend on the processing

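Leaving out each E16.5 library in turn gave T to other HP ratios at E16.5 from 2.15 (without replicate 1) to 5.44 (without replicate 2), and mean log2 ratios for phLT-HSCs from 0.99 to 1.40, while other antibody cutoffs lowered the latter to 0.544 and 0.585. Leaving out Gimap1 moved the T ratio to 5.29 at E18.5, 4.75 at P0 and 20.1 in adults, and the endothelial ratio to 156 for E16.5, 252 for E18.5, 118 for P0 and 103 for adults. Weighting every cell alike moved the T ratio to 5.06 at E18.5 and 10.7 in adults, and the endothelial ratio to 213 at E18.5, 89.7 at P0 and 105 in adults. Without shared barcodes the T ratio at E18.5 was 4.13. All of these kept their direction. Genes past the threshold in HSPC codes at E18.5, P0 and in adults numbered 479, 632 and 965, against 236, 297 and 392 in DESeq2 and 117, 163 and 189 without shared barcodes. In T codes they numbered 149, 97 and 272, against 16, 14 and 63 in DESeq2, and 259 at P0 with no filter on low counts. Of 385 repeats of members' fold changes, 337 were scored unchanged, 37 moved and 11 lost their call, and no called member changed sign. Repeats without an E16.5 replicate were scored by whether the value stayed within a standard error of the main value. All other repeats were scored by call and direction alone, with a sign change in an uncalled member taken as unchanged. DESeq2 accounted for 9 of the lost calls and called no member in any fit. The causes were not tested. No stromal code names blood cells, so leaving such codes out gave no value. No paired analysis was possible because replicate numbers exist for the E16.5 HP libraries only. Depth limits Gimap3, with 483 UMIs in all, and every group below 50 cells. With 1 library per later stage, stage and library cannot be told apart.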

Other observations

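The genes that flank the cluster showed smaller differences than the family between endothelial codes and other stroma, summed over all libraries of a kind, and mixed ones between T codes and other HPs. Tmem176b and Tmem176a, membrane proteins of dendritic cells and macrophages that lie beyond Gimap3, stood at 71.9 and 44.7 CPM in T codes against 91.9 and 48.0 CPM in other HPs, and at 357 and 220 CPM in endothelial codes against 152 and 98.5 CPM in other stroma. On the other side, Rarres2, the precursor of chemerin, stood at 26.9 CPM in endothelial codes and 58.3 CPM in other stroma, and Repin1 and Zfp775, zinc finger genes, at 4.46 and 4.93 CPM against 3.47 and 3.00 CPM there. In T codes Zfp775 was 2.92-fold higher (2.63 to 3.23) than in other HPs and Repin1 1.60-fold (1.45 to 1.76). The family sum pooled in this way was 2.12-fold higher (2.09 to 2.16), which lies below its ratio at every single stage. Most T-coded cells come from E16.5, so these pooled ratios are not ranked. By contrast, between endothelial codes and other stroma the family ratio was 188-fold (179 to 197). Gm5111 stood at 17.3 CPM in T codes against 8.71 CPM in other HPs, with 0.117 CPM in endothelial codes.

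CD73, an ecto-nucleotidase, went with less of the family in the E16.5, E18.5 and P0 stromal libraries, with ratios of 0.221 (0.171 to 0.281) at E16.5, 0.195 (0.148 to 0.252) at E18.5 and 0.404 (0.361 to 0.450) at P0, and with an interval that includes 1 in adults (1.03, 0.960 to 1.09). CD140a, a mesenchymal receptor, went with less at E16.5 (0.804, 0.666 to 0.965), E18.5 (0.581, 0.450 to 0.741) and in adults (0.732, 0.675 to 0.793), but not at P0 (0.968, 0.873 to 1.07). CD127-positive cells had less at P0 (0.239, 0.0875 to 0.520) and more in adults (1.64, 1.38 to 1.94).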
